A study of Mus musculus with 15 samples.

Results

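Immediate early genes are the first genes that a cell transcribes after a stimulus. Here 10 of them were followed through progenitor cells of mouse bone marrow from wild-type mice and Trappc1 knockouts. The 10 were taken by symbol: the AP-1 subunits Fos, Fosb, Jun and Junb, the EGR zinc-finger factors Egr1 and Egr2, the orphan nuclear receptors Nr4a1 and Nr4a2, the short nuclear protein gene Ier2, and Dusp1, which encodes a phosphatase of MAP kinases. All 10 were among the 23337 gene symbols of the files, and all 10 passed the filter on low counts that left 15181 genes for testing. The study sequenced RNA from sorted common myeloid progenitors (CMP) and granulocyte-monocyte progenitors (GMP) of wild-type (WT) mice and Trappc1 knockouts (KO), and the labels record no treatment. Trappc1 encodes a subunit of the TRAPP complexes, which act in vesicle transport between the endoplasmic reticulum and the Golgi. Per the labels, CMP were lineage-negative, Sca1-negative, CD117-positive and CD34-positive cells with low CD16/32, and GMP were the same cells with high CD16/32. There were 4 libraries each of WT CMP, KO CMP and WT GMP, numbered 1 to 4, and 3 of KO GMP, numbered 1, 3 and 4. The labels name no Cre line, no deleted exon, no age and no sex. Whether each library stands for another animal is not stated either, and the p-values reflect library-to-library spread that may in part be technical.

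Library totals ran from 61.3 to 120.3 M deposited units, or about 15.3 to 30.1 M fragments. Levels are given as CPM, counts scaled to library size after adjustment between libraries. Trappc1 measured 18.4 to 26.2 CPM in WT CMP and 3.83 to 13.4 CPM in KO CMP, 30.9 to 41.3 CPM in WT GMP and 6.09 to 25.2 CPM in KO GMP, so no KO library reached the WT range of its cell type. KO CMP libraries 1 and 2 and KO GMP library 1 stood apart from the other KO libraries. Their Trappc1 levels were 5.56, 3.83 and 6.09 CPM, against at least 11.7 CPM in the other KO libraries. Their levels of Xist, the X-inactivation RNA, were 109, 204 and 123 CPM, against at most 2.17 CPM in every other library. KO GMP library 1 also had gate markers outside the range of WT GMP. Its Fcgr3, which encodes CD16, was 125 CPM, against 239 to 315 CPM in WT GMP and 36.6 to 115 CPM in WT CMP. Its Cd34 was 547 CPM, against 206 to 326 CPM in WT GMP and 525 to 693 CPM in WT CMP. For KO against WT and GMP against CMP, values without these 3 libraries are given beside the results they move. The libraries are also split into number sets, 1 and 2 against 3 and 4, a split chosen after earlier results of these data were known. The labels link the numbers to no batch. For KO against WT over all libraries, edgeR did not call Trappc1 itself. Its log2 changes were -1.36 (SE 0.41, adjusted p = 0.243) in CMP and -0.95 (SE 0.44, adjusted p = 0.77) in GMP. In numbers 1 and 2 the changes were -2.25 in CMP and -2.69 in GMP. In numbers 3 and 4 they were -0.80 in CMP and -0.38 in GMP.

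As background, AP-1 is a pair of FOS-family and JUN-family proteins that binds DNA together, and its composition sets which target genes respond. Immediate early genes need no new protein for their induction: MAP kinases and calcium signals act on factors already bound at their promoters, among them SRF with its ternary complex partners and CREB. EGR proteins take part in the choice between monocyte and granulocyte fates, NR4A receptors restrain the proliferation of myeloid progenitors and stem cells, and DUSP1 ends the response by removing phosphates from p38, JNK and ERK. Sorting and tissue dissociation are themselves known inducers of these genes. No library here was taken without sorting, so the part of the sort in the levels below was not tested.

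Promoter sequence was read for the members on which the results turn: Nr4a1 and Nr4a2, which differed most between CMP and GMP, and Fos, Dusp1 and Jun, whose deviations ran together over the 15 libraries. The sequences are the bases before the RefSeq start on GRCm38.p6, printed 5′ to 3′ on the strand of the gene. They cover chr15:101266596-101266845 (plus strand) for Nr4a1, chr2:57124004-57124253 (minus) for Nr4a2, chr12:85473640-85473889 (plus) for Fos, chr17:26508520-26508722 (minus) for Dusp1 and chr4:95052223-95052472 (minus) for Jun. Each window held 250 bases, and 47 bases that GENCODE places in an exon were cut from the 3′ end for Dusp1. The Nr4a1 window lies inside the GENCODE gene (15, 101254269 to 101274795), before a start downstream of its first. The same holds for the Dusp1 window (17, 26505590 to 26562128, minus strand). Capitals mark every match to the cyclic AMP response element TGACGTCA, its short form TGACG, the AP-1 site TGANTCA, the AP-1-like heptamer TGCGTCA, the octamer TGACATCA, the CArG box of SRF, the EGR site GCGGGGGCG and the TATA box TATAAA, all searched on both strands after the sequences had been seen.
Nr4a1: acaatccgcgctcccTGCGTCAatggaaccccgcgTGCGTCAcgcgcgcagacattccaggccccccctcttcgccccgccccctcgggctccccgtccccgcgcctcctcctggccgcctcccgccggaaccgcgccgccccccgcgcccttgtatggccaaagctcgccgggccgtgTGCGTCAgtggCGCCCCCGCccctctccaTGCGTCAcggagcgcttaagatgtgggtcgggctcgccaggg
Nr4a2: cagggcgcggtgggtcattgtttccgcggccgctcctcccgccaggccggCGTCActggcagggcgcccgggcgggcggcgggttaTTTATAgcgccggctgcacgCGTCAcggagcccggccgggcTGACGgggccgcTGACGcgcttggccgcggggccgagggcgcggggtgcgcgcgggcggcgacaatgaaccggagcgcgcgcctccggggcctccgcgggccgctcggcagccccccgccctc
Fos: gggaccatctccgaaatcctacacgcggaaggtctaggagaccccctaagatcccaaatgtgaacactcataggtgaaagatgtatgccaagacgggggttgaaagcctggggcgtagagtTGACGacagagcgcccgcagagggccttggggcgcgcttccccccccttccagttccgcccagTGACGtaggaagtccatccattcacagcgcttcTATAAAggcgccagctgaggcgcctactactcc
Dusp1: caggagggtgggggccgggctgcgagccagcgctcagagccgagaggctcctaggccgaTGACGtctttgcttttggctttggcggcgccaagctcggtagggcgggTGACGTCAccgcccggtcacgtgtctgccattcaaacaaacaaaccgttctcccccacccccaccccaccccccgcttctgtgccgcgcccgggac
Jun: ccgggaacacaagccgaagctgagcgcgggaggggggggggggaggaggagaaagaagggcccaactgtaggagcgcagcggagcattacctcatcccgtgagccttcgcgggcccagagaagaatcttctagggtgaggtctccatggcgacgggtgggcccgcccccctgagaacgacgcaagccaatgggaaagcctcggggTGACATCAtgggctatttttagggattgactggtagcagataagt
The Nr4a1 window held TGCGTCA 4 times, starting 235, 215, 71 and 42 bases before the start. Of 32851 mouse windows of the same length, 1.75% held it at least once. Each of these matches also contains the short form TGACG on the other strand, which 17.8% of windows held. The Nr4a2 window held TGACG 4 times, as close as 111 bases before the start, and a TATA box on the other strand. Fos carried TGACG at 129 and 66 bases and a TATA box, found in 12.4% of windows, at 33 bases. Dusp1 carried the full TGACGTCA (1.55% of windows) at 143 bases. Jun was the member without TGACG among the 8 with a window, and carried TGACATCA (2.93%) at 45 bases. The EGR site (2.57%) matched in Nr4a1 and Fosb, and the CArG box (1.47%) only in Egr2, whose windows were read for matches but are not printed. The AP-1 site TGANTCA (6.75%) matched in none of the 8. These matches describe letters in these windows and were not tied to the expression values by any test. Ier2 and Egr1 have no printed window.

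GENCODE places the genes on GRCm38 as follows. Fos spans chromosome 12, 85473890 to 85477273, Fosb chromosome 7, 19302696 to 19310051, Jun chromosome 4, 95049034 to 95052222, and Junb chromosome 8, 84974484 to 84978718. Egr2 spans chromosome 10, 67535475 to 67542188, Nr4a2 chromosome 2, 57106830 to 57124003, Ier2 chromosome 8, 84661331 to 84662852, and Dusp1 chromosome 17, 26505590 to 26562128. Egr1 lies on chromosome 18.

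The members lay at very different levels. Per kilobase of exon, Jun led in WT CMP at 529 ± 158 CPM per kb (SD, n = 4), followed by Fos at 452 ± 94.7, Ier2 at 262 ± 103, Junb at 173 ± 29.5, Dusp1 at 145 ± 19.7 and Fosb at 114 ± 16.3 CPM per kb. Each of these 6 overlapped its neighbour in the order, so their order is not resolved step by step. Egr1 at 77.3 ± 9.78, Nr4a1 at 49.1 ± 6.96, Nr4a2 at 4.82 ± 1.95 and Egr2 at 0.51 ± 0.153 CPM per kb followed, each apart from the next over the 4 libraries. In WT GMP the order was Jun (400 ± 21.9 CPM per kb), Fos (339 ± 28.8), Ier2 (200 ± 7.61), Dusp1 (116 ± 1.85), Junb (94.9 ± 14.3), Fosb (74.2 ± 16.6), Egr1 (23.6 ± 5.13), Nr4a1 (4.03 ± 1.11), Nr4a2 (1.38 ± 0.584) and Egr2 (0.465 ± 0.117), and there only Junb and Fosb overlapped as neighbours. Dusp1 and Junb thus stood in opposite order in the WT libraries of the 2 cell types, although in CMP their ranges overlapped. The KO groups kept the WT order of their cell type, except that Nr4a1 (74.8 ± 10.6 CPM per kb) stood above Egr1 (67.1 ± 19.7) in KO CMP, with overlapping ranges. Egr2 rested on 15 to 60.5 fragments a library, against 17369 to 66557 for Jun. Its standard errors for the log2 changes were, with those of Nr4a2, the largest of the 10 over all libraries.

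**Figure D1:**
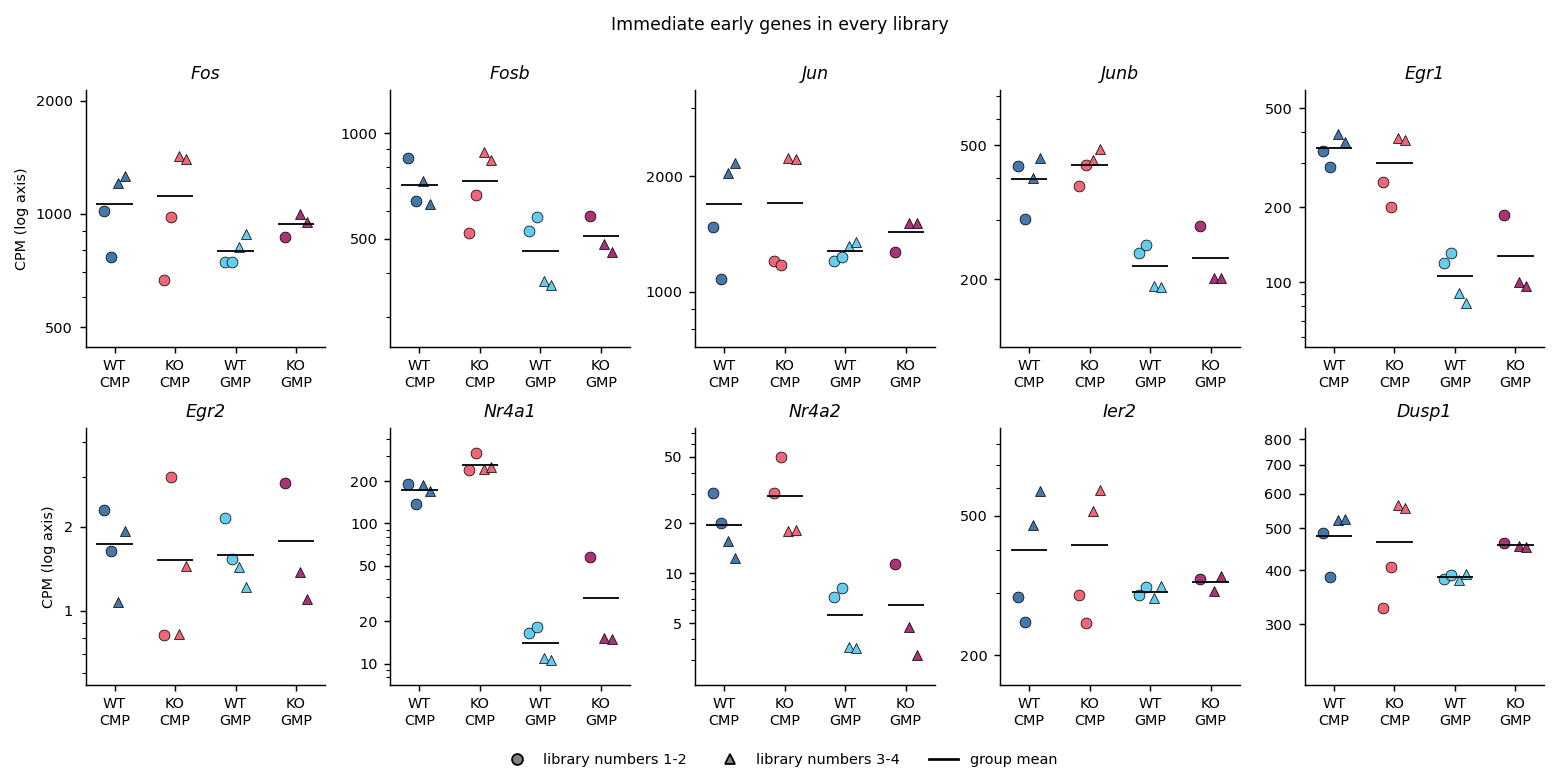
CPM of each of the 10 genes (log axis, a separate scale for each panel) in the 15 libraries, by group; circles are libraries numbered 1 and 2, triangles those numbered 3 and 4, and the line is the group mean. Nr4a1 shows the widest gap between cell types, with 138 to 318 CPM in CMP and 10.6 to 57.2 CPM in GMP, while Jun and Ier2 part by library number within CMP.

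The first comparison asked how the genes differ between the 2 stages of myeloid commitment. In WT cells 5 of the 10 were lower in GMP than in CMP and none was higher: Nr4a1, Nr4a2, Egr1, Junb and Fosb. Of all 15181 genes, 14.2% were called lower, 11.3% higher and 25.5% in either direction. The median log2 change was -0.52 over the 10 and -0.02 over all tested genes. In RNA from sorted populations, fewer cells that transcribe a gene and less RNA per cell cannot be told apart. Adjusted p-values throughout are from edgeR's quasi-likelihood test with Benjamini-Hochberg adjustment over all tested genes unless another tool is named, and values after ± beside a log2 change are standard errors.

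Nr4a1, the receptor also known as Nur77, had the largest change of the 10. It measured 191, 138, 189 and 171 CPM in WT CMP libraries 1 to 4 and 16.5, 18.3, 11 and 10.6 CPM in WT GMP libraries 1 to 4. The groups were far apart, with the lowest CMP library above the highest GMP library, and the log2 change was -3.61 ± 0.35 (adjusted p = 9.67e-05), a fold of 0.082. In KO cells it measured 238, 318, 243 and 251 CPM in CMP and 57.2, 15.1 and 15 CPM in GMP, a log2 change of -3.17 ± 0.38 (adjusted p = 0.000514). KO GMP library 1 supplied the 57.2 CPM, and without KO CMP libraries 1 and 2 and KO GMP library 1 the KO change was -4.04. Nr4a2 (Nurr1), its close relative, measured 30.5, 19.9, 15.5 and 12.4 CPM in WT CMP and 7.13, 8.11, 3.61 and 3.52 CPM in WT GMP. All GMP values lay below all CMP values, and the log2 change was -1.81 ± 0.44 (adjusted p = 0.011). In KO cells Nr4a2 changed by -2.17 ± 0.48 (adjusted p = 0.00817), with an adjusted p of 0.0521 when KO GMP library 3 was left out.

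Egr1 measured 338, 291, 394 and 365 CPM in WT CMP and 119, 131, 90.6 and 82.6 CPM in WT GMP. The groups did not overlap, and the log2 change was -1.71 ± 0.24 (adjusted p = 0.000413). In KO cells it was -1.23 ± 0.26 (adjusted p = 0.00525), from 252, 201, 380 and 371 CPM in CMP to 187, 100 and 96.9 CPM in GMP; the closest values, 201 and 187 CPM, came from KO CMP library 2 and KO GMP library 1. Without the 3 libraries that stood apart, the KO change of Egr1 was -1.93. Its relative Egr2 stayed between 0.815 and 3 CPM in all 15 libraries, and its log2 change was -0.13 ± 0.44 in WT cells with a 95% interval from -1.08 to 0.81, which includes a 2-fold decrease.

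Among the AP-1 genes, Junb measured 433, 303, 400 and 458 CPM in WT CMP and 240, 253, 191 and 189 CPM in WT GMP, a log2 change of -0.87 ± 0.15 (adjusted p = 0.00139) with no overlap. The KO change was close to it at -0.92 ± 0.16 (adjusted p = 0.00184). Without the 3 KO libraries that stood apart, it was -1.21 in KO and -0.88 in WT. Fosb measured 848, 641, 733 and 628 CPM in WT CMP and 526, 576, 380 and 370 CPM in WT GMP. Its groups did not overlap either, but the call was the least firm of the 5: the log2 change was -0.62 ± 0.18 (adjusted p = 0.0224), and the adjusted p was 0.0558 to 0.0678 when WT CMP library 1 or 3 or WT GMP library 3 or 4 was left out. In KO cells Fosb changed by -0.52 ± 0.20 and missed the threshold (adjusted p = 0.0772), while DESeq2 called it (adjusted p = 0.0358). Fos, Jun, Ier2 and Dusp1 lay at log2 changes of -0.41 ± 0.20, -0.41 ± 0.23, -0.39 ± 0.28 and -0.32 ± 0.15 in WT cells, with adjusted p-values of 0.154, 0.224, 0.323 and 0.132. Their CMP and GMP libraries overlapped, for Fos at 770 to 1264 CPM in WT CMP against 745 to 886 CPM in WT GMP. Fos was nevertheless lower in GMP in all 4 WT pairs of the same number, and it was called with the number set as a covariate (-0.39, adjusted p = 0.04).

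In KO cells 4 of the 10 were called lower in GMP (10.5% of all genes lower, 21.2% in either direction), and the same 4 were called in WT. Groups without overlap were counted for 5 genes in WT and 4 in KO, all lower in GMP, against 17.0% and 14.5% of all genes lower without overlap. Without the 3 KO libraries that stood apart, Fos (-0.43, adjusted p = 0.023) and Dusp1 (-0.33, adjusted p = 0.0118) were called lower in WT GMP as well, and Fos (-0.53, adjusted p = 0.0493) and Fosb (-0.87, adjusted p = 0.00957) in KO GMP. The WT libraries are the same in that fit, in which all groups share 1 estimate of spread. No member showed a called difference of the KO effect between the cell types, which is also the difference of the GMP-to-CMP change between genotypes: edgeR called 0 of 10 (0% of all genes), 0 had an unadjusted p under 0.05 (2.97% of all genes did), and DESeq2 called 0.

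**Figure D2:**
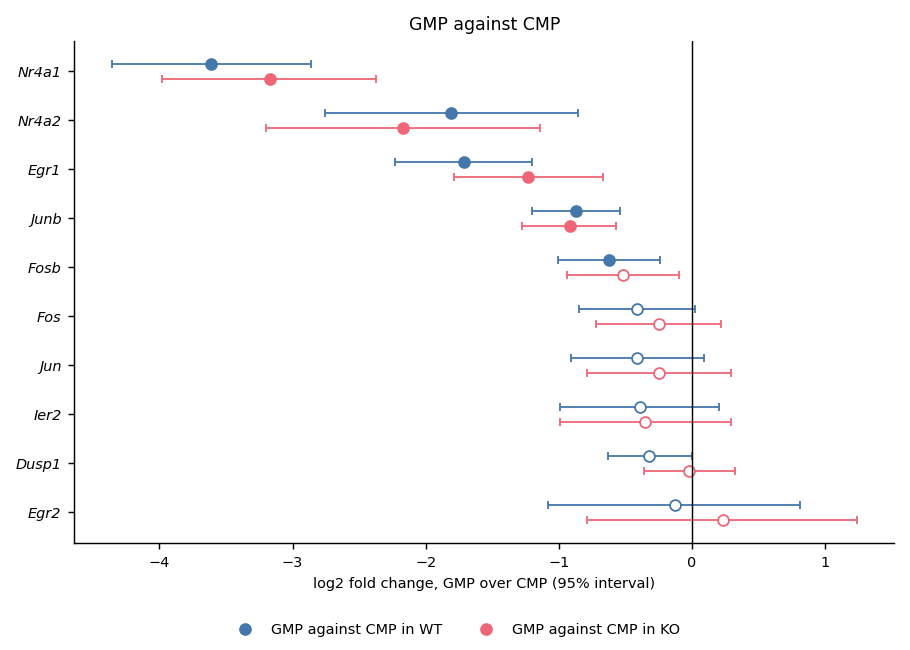
Log2 fold change of GMP over CMP for each gene in WT (blue) and KO (red) libraries, with 95% intervals; filled points passed the adjusted threshold of 0.05 and open points did not. Nr4a1 lies furthest from 0 at -3.61 in WT and -3.17 in KO, and the 4 lowest genes are filled in both genotypes.

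Other immediate early genes and their relatives are given from lists, beside 14.2% lower and 11.3% higher of all genes in WT GMP. Of 16 other AP-1 family genes, 1 was higher and 4 were lower in WT GMP, among them Mafk (-0.63 ± 0.09, adjusted p = 0.000431), the stress-induced factor Atf3 (-1.15 ± 0.26, adjusted p = 0.00701) and Batf3 (-4.45 ± 0.99, adjusted p = 0.00952). Of 5 genes from the rest of the EGR and NR4A families and the EGR corepressors, 2 were lower: the corepressor Nab2 (-0.94 ± 0.20) and Egr3 (-2.56 ± 0.59). Nr4a3, the remaining NR4A receptor, was listed at 0 in 2 of 4 WT GMP libraries and 2 of 3 KO GMP libraries, and reached 2.74 CPM at most. Of 38 further immediate early genes, 2 were higher and 13 lower (median -0.48), among them Ppp1r15a (-1.09 ± 0.13), the cytokine-signalling inhibitor Socs3 (-3.11 ± 0.39) and Ier5 (-1.48 ± 0.23). These lists overlap in kind with the members and were chosen with earlier results known, so their counts are description only.

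Genes that ERK and other MAP kinases induce or that act on them are given next, beside 14.2% lower and 11.3% higher of all genes. Of 8 tested relatives of Dusp1 among the MAP kinase phosphatases, none was higher and 5 were lower in WT GMP, with Dusp5 at -1.90 ± 0.34, Dusp16 at -2.32 ± 0.50 and Dusp2 at -0.91 ± 0.24. Of 14 genes induced by ERK, here called ERK feedback targets, which share Dusp4 and Dusp6 with the phosphatases and include genes that are no inhibitors, none was higher and 7 were lower, with Epha2 at -3.74 ± 0.64, Spry1 at -1.59 ± 0.30 and Ccnd1 at -1.60 ± 0.41. Among the kinases themselves the counts ran the other way: of 24 ERK, JNK and p38 pathway kinase genes 7 were higher and 1 was lower in GMP, with Map2k4 at 0.42 ± 0.08, Mapk3 (ERK1) at 0.67 ± 0.15 and Mapk11 at -3.12 ± 0.52. Of 12 genes for SRF, CREB and their partners 2 were higher and 3 lower, including Srf (0.36 ± 0.09), the SRF partner Elk3 (-0.37 ± 0.08) and the CREB coactivator Crtc1 (-0.71 ± 0.13). Of 12 heat shock genes that respond to cell isolation, 1 was higher (Hspd1, 0.25 ± 0.08) and 1 lower (Dnajb1, -0.35 ± 0.09), and their summed level was 7945 to 8783 CPM in WT CMP and 8394 to 9579 CPM in WT GMP. Hspa8, Hsp90aa1 and Hsp90ab1 made up most of this sum.

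Markers of other lineages moved with this comparison. Of 11 genes of the CMP and GMP gates, 5 were higher and 5 lower in WT GMP, beside 11.3% higher and 14.2% lower of all genes. The summed level of 7 megakaryocyte genes was 346 to 409 CPM in WT CMP and 89.5 to 99.4 CPM in WT GMP, that of 9 erythroid genes 349 to 383 and 248 to 276 CPM, that of 11 monocyte and macrophage genes 819 to 1338 and 2883 to 3302 CPM, and that of 7 mast cell and basophil genes 207 to 354 and 1410 to 1530 CPM. The 10 mature neutrophil genes summed to 52.6 to 277 CPM in WT CMP and 283 to 790 CPM in WT GMP. S100a8 supplied 7.2 to 178 CPM of this in WT CMP and 169 to 459 CPM in WT GMP. Ly6c2 supplied 369 to 858 CPM of the monocyte and macrophage sum in WT CMP and 2272 to 2721 CPM in WT GMP. Of the 11 monocyte and macrophage genes, 1 was called higher in WT GMP and 0 lower. Of the 10 mature neutrophil genes, 1 was called higher and 1 lower. Tfrc supplied 138 to 206 CPM of the erythroid sum in WT CMP and most of it in WT GMP, at 220 to 247 CPM. Car2 went the other way, at 111 to 199 CPM in WT CMP and 22.2 to 23.5 CPM in WT GMP. Of the 9 erythroid genes, 1 was called higher in WT GMP and 5 lower. Markers of B cells and stroma were low: 8 B-cell genes summed to at most 58.2 CPM in any library, with Ebf1 at 0 in all 4 WT GMP libraries, and 10 stromal and endothelial genes to at most 25.6 CPM in WT CMP and 3.03 CPM in WT GMP. The 8 T and NK cell genes summed to 115 to 259 CPM in WT CMP and 366 to 438 CPM in WT GMP, with Cd3g at 0 in all 4 WT GMP libraries. Nkg7 alone made up most of this sum, at 365 to 436 CPM in WT GMP, and the other 7 genes summed to 15.4 to 17.6 CPM in WT CMP and 0.502 to 3.04 CPM in WT GMP. The part of these cell types in the levels of the immediate early genes was not tested.

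The second comparison asked how the genes differed between KO and WT libraries within each cell type. No member passed the test over all libraries. In CMP edgeR called 0 of 10 (0% of all genes called). DESeq2 called 0 of the 10 as well, and 0 had an unadjusted p from edgeR under 0.05, where 11.6% of all genes did. In GMP edgeR called 0 of 10 (0% of all genes called). DESeq2 called 0 there too, and 1 had an unadjusted p from edgeR under 0.05, where 6.49% of all genes did. The median log2 change of the 10 was 0.04 in CMP and 0.19 in GMP, beside 0.01 over all tested genes in both. Point estimates were above 0 for 7 of the 10 in CMP and for all 10 in GMP. Without the 3 KO libraries that stood apart, they were above 0 for 8 in CMP and 6 in GMP, with medians of 0.24 and 0.06.

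Nr4a1 was the gene that stood furthest from 0 in both cell types. In CMP the 4 KO libraries, at 238 to 318 CPM, all lay above the 4 WT libraries, at 138 to 191 CPM. It was the only member whose KO and WT CMP libraries did not overlap, which held for 6.85% of all genes. The log2 change was 0.61 ± 0.35 with a 95% interval from -0.13 to 1.35 (adjusted p = 0.546). In GMP the change was 1.04 ± 0.38, with an interval from 0.23 to 1.85, an unadjusted p from edgeR of 0.0146 and an adjusted p of 0.661. Libraries of the same number paired KO above WT for Nr4a1 in 4 of 4 CMP pairs, by log2 ratios of 0.32, 1.20, 0.36 and 0.55 for numbers 1 to 4, and in 3 of 3 GMP pairs, by 1.79, 0.45 and 0.50 for numbers 1, 3 and 4. The largest ratios came from KO CMP library 2 and KO GMP library 1, which are among the 3 that stood apart. Without those 3 the CMP change was 0.51 (adjusted p = 0.241). In GMP it was 0.09 (adjusted p = 0.98), a fit that sets KO libraries 3 and 4 against all 4 WT libraries, of which numbers 1 and 2 had the higher levels.

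Dusp1 was the only member whose KO and WT GMP libraries did not overlap, at 462, 455 and 453 CPM in KO libraries 1, 3 and 4 and 381, 389, 379 and 392 CPM in WT libraries 1 to 4; 7.34% of all genes did not overlap. All 3 KO libraries lay above all 4 WT libraries, and the log2 change was 0.25 ± 0.16 (adjusted p = 0.886). It was 0.24 (adjusted p = 0.935) without KO GMP library 1. In CMP Dusp1 measured 327, 406, 566 and 555 CPM in KO and 488, 385, 522 and 524 CPM in WT, a log2 change of -0.05 ± 0.15 with an interval from -0.37 to 0.27. The KO libraries there spread on both sides of the WT range.

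For the other members the KO estimates in CMP ran from -0.20 ± 0.24 for Egr1 to 0.57 ± 0.44 for Nr4a2, and in GMP from 0.08 ± 0.16 for Junb to 0.28 ± 0.26 for Egr1. These ends rest on the 3 libraries that stood apart: without them Egr1 was at 0.10 and Nr4a2 at -0.13 in CMP, and Junb at -0.11 and Egr1 at -0.10 in GMP. Without them Fos and Jun moved in CMP from 0.07 and 0.01 to 0.40 and 0.39, and Ier2 was at 0.46, and none of these passed the test. The intervals for Fos (-0.37 to 0.51 in CMP, -0.24 to 0.71 in GMP), Fosb (-0.35 to 0.42 and -0.28 to 0.55) and Junb (-0.19 to 0.46 and -0.27 to 0.43) over all libraries hold no 2-fold change in either direction in both cell types. The same holds for Jun, Ier2, Dusp1 and Egr1. Those for Egr2 (-1.13 to 0.75 in CMP, -0.84 to 1.19 in GMP) and Nr4a2 (-0.37 to 1.51 and -0.82 to 1.24) include a 2-fold change in both cell types, as do those for Nr4a1. In GMP, KO lay above WT in all 3 same-number pairs for 8 members, and for Egr2 in 1 and Nr4a2 in 2 of the 3 pairs. Some of these ratios were small, from 1.04 to 1.12 for Ier2 and from 1.06 to 1.2 for Junb. All members were read in the same 3 KO libraries, and the share of all genes with this pattern was not computed. The count is therefore description only.

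**Figure D3:**
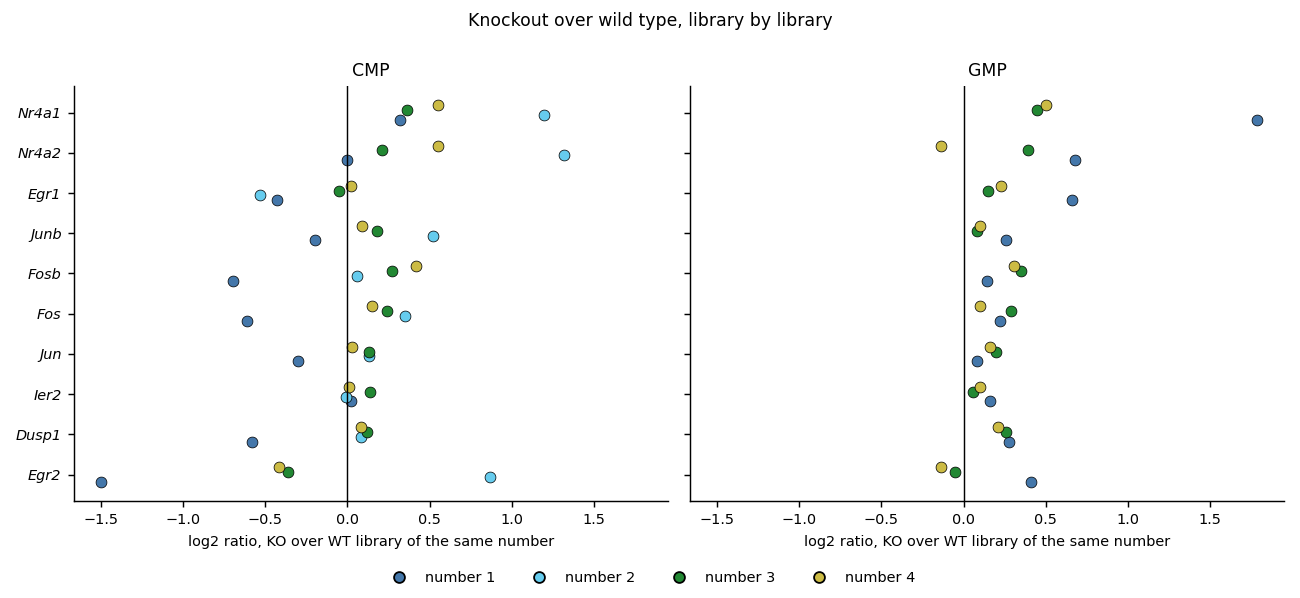
Log2 ratio of each KO library over the WT library of the same number, for each gene in CMP (left) and GMP (right); colours give the library number. The ratios of Nr4a1 all lie above 0, from 0.32 to 1.20 in CMP and from 0.45 to 1.79 in GMP, and the ratios of KO CMP library 1 lie below 0 for Fos, Fosb, Jun, Junb, Egr1, Egr2 and Dusp1.

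Within number sets, Nr4a1 and Egr1 passed the test in numbers 1 and 2. Their standard errors in CMP were 0.15 and 0.11 there, against 0.35 and 0.24 over all libraries, while that of Egr2 was larger, at 0.53 against 0.44. In CMP numbers 1 and 2, Nr4a1 was higher in KO by 0.76 ± 0.15 (adjusted p = 0.00314; 8.23% of all genes called higher), and Egr1 was lower by a log2 change of -0.47 ± 0.11 (adjusted p = 0.00926; 10.2% called lower). The Egr1 call was lost without KO CMP library 2 (adjusted p = 0.0627) or WT CMP library 1 (adjusted p = 0.0898). The number of members called higher was 1 to 3 and lower 0 to 4 when 1 library was left out, the extremes without WT CMP library 1 (3 and 0) and without WT CMP library 2 (4 lower: Egr1, Dusp1, Jun and Fosb). In GMP numbers 1 and 2, which hold a single KO library that is assumed to vary like the others, Nr4a1 was higher by 1.71 ± 0.18 (adjusted p = 3.83e-05) and Egr1 was higher by 0.58 ± 0.13 (adjusted p = 0.00774), where 11.0% of all genes were called higher. Gate markers parted KO and WT in these sets as well. In CMP numbers 1 and 2 Mpo was 3047 and 3591 CPM in KO against 13178 and 14822 CPM in WT, and Fcgr3 12.9 and 18.8 against 99.5 and 115 CPM. The 10 mature neutrophil genes summed there to 21.9 and 24 CPM in KO against 241 and 277 CPM in WT. S100a8 supplied 0.815 and 2.57 against 146 and 178 CPM of this, and 5 of the 10 were called lower and 0 higher. The part of these markers in the calls was not tested. All 3 KO libraries behind these calls are the ones that stood apart, so the calls have no value without them.

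In numbers 3 and 4 no member was called. Trappc1 itself was not called there either, at -0.80 ± 0.19 in CMP and -0.38 ± 0.19 in GMP. edgeR called 0 of 10 in CMP (0.00659% of all genes) and 0 of 10 in GMP (0.0132% of all genes). DESeq2 called 0 of the 10 in both. In each cell type 2 members had an unadjusted p under 0.05, as did 11.4% of all genes in CMP and 5.20% in GMP. The 2 were Nr4a1 and Fosb in both cell types. Nr4a1 measured 243 and 251 CPM in KO CMP libraries 3 and 4 against 189 and 171 CPM in WT, a log2 change of 0.46 ± 0.15 (unadjusted p from edgeR 0.0088, adjusted p = 0.331). In GMP it measured 15.1 and 15 CPM against 11 and 10.6 CPM, 0.47 ± 0.15 (unadjusted p from edgeR 0.0097, adjusted p = 0.7). The estimates for Nr4a1 in CMP and GMP were thus within 1 standard error of each other in this set. Fosb lay at 0.34 ± 0.14 in CMP and 0.33 ± 0.14 in GMP (adjusted p = 0.387 and 0.862).

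The difference between the number sets was tested directly. In GMP the KO effect on Nr4a1 was larger in numbers 1 and 2 than in numbers 3 and 4 by 1.24 ± 0.24 (adjusted p = 0.00546; 6.27% of all genes had a larger effect there), and it was the only member called. In CMP edgeR called 0 of 10 (7.64% of all genes differed). At an unadjusted p under 0.05 were 3 members, and 20.5% of all genes: Fosb (-0.67 ± 0.19, adjusted p = 0.0556), Egr1 (-0.46 ± 0.15, adjusted p = 0.102) and Dusp1 (-0.35 ± 0.16, adjusted p = 0.226). DESeq2 called 1 member there, Fosb (adjusted p = 0.0137). Marker genes moved with library number as well. In KO GMP library 1 Mpo, a granule gene of GMP, was 14822 CPM against 26150 to 26277 CPM in KO GMP libraries 3 and 4, and the CMP and megakaryocyte genes Gata2 and Pf4 were 268 and 28.9 CPM against at most 70.5 and 3.64 CPM. The 7 megakaryocyte genes summed to 76.6 to 302 CPM in KO GMP and 440 to 723 CPM in KO CMP, 11 monocyte and macrophage genes to 584 to 2702 and 176 to 730 CPM, and 10 stromal and endothelial genes to 1.82 to 77.7 and 6.79 to 224 CPM. Ly6c2 supplied 279 to 2192 CPM of the monocyte and macrophage sum in KO GMP and 22.7 to 355 CPM in KO CMP. At 57.2 CPM, Nr4a1 in KO GMP library 1 lay above every WT GMP library (10.6 to 18.3 CPM) and below every WT CMP library (138 to 191 CPM). The part of these marker differences in the KO effect on Nr4a1 was not tested.

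In the related lists no gene was called for KO against WT over all libraries: 0 of 16 other AP-1 genes, 0 of 5 EGR and NR4A relatives, 0 of 38 further immediate early genes, 0 of 8 MAP kinase phosphatases, 0 of 14 ERK feedback targets, 0 of 12 SRF and CREB factors, 0 of 24 kinases and 0 of 12 heat shock genes, in CMP and in GMP. The ERK feedback targets had the highest medians, 0.52 in CMP and 0.82 in GMP. Within that list the phosphatase Dusp6, which acts on ERK, lay at 0.36 ± 0.16 in CMP and 0.68 ± 0.17 in GMP (adjusted p = 0.409 and 0.523), and the ETS factor Etv4 at 2.70 ± 0.88 (adjusted p = 0.287) and 3.68 ± 1.05 (adjusted p = 0.547). Etv4 was carried by the libraries that stood apart, at 7.79 and 5.1 CPM in KO CMP libraries 1 and 2, 2.67 CPM in KO GMP library 1 and at most 1.9 CPM elsewhere. Among the further immediate early genes Plk2 was 0.78 ± 0.30 in CMP and Socs3 1.38 ± 0.42 in GMP, with adjusted p-values of 0.327 and 0.594. Heat shock genes summed to 9048 to 10071 CPM in KO CMP against 7945 to 8783 CPM in WT CMP, ranges that did not overlap, and to 9189 to 9704 CPM in KO GMP against 8394 to 9579 CPM in WT GMP. Hspa8, Hsp90aa1 and Hsp90ab1 made up most of these sums, with Hsp90ab1 at 3645 to 4393 CPM in KO CMP and 3120 to 3880 CPM in WT CMP. Hspa1a went the other way in CMP, at -0.85 ± 0.37 (adjusted p = 0.399). Estimates were above 0 for 8 of the 12 genes in CMP and for 5 in GMP. Within numbers 1 and 2, where the KO libraries stood apart, 6 of 14 ERK feedback targets were called higher in CMP and 10 of 14 in GMP, beside 8.23% and 11.0% of all genes. In numbers 3 and 4, 0 of 14 were called in either cell type. The 10 stromal and endothelial genes moved with the counts in numbers 1 and 2, with 7 called higher in CMP and 6 in GMP, and summed to 156 and 224 CPM in KO CMP libraries 1 and 2 and 77.7 CPM in KO GMP library 1, against at most 9.1 CPM in the other KO libraries. Their part in the ERK feedback counts was not tested.

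The number sets also parted the WT libraries. In WT CMP, Ier2 measured 293 and 249 CPM in libraries 1 and 2 and 469 and 587 CPM in libraries 3 and 4, a log2 change of -0.96 ± 0.13 for numbers 1 and 2 against 3 and 4 (adjusted p = 0.000309). Jun measured 1473 and 1079 CPM against 2034 and 2166 CPM, -0.72 ± 0.11 (adjusted p = 0.000723). Fos, at 1016 and 770 CPM against 1206 and 1264 CPM, was lower by a smaller margin (-0.47 ± 0.15, adjusted p = 0.0454). Nr4a2 ran the other way, at 30.5 and 19.9 CPM against 15.5 and 12.4 CPM (0.85 ± 0.25, adjusted p = 0.0277). In all, 3 members were lower and 1 was higher in numbers 1 and 2, where 10.6% of all genes were called lower and 12.3% higher. The Fos call was lost under most alternatives, with an adjusted p of 0.324 without WT CMP library 2 and 0.103 with a block for library number, and the Nr4a2 call without WT CMP library 1 (adjusted p = 0.222) or 4 (0.183) and with the block (0.105). Without WT CMP library 1, 5 members were called lower. Marker genes moved with this split: in WT CMP libraries 1 and 2 against 3 and 4, Mpo was 13178 and 14822 against 7949 and 8276 CPM, Fcgr3 99.5 and 115 against 36.6 and 39.3 CPM, and the 10 mature neutrophil genes summed to 241 and 277 against 52.6 and 64.8 CPM. For Mpo, Fcgr3 and the neutrophil sum, WT CMP libraries 1 and 2 lay nearer to WT GMP than libraries 3 and 4 did. S100a8 supplied 146 and 178 CPM of that sum in libraries 1 and 2, against 7.2 and 9.69 CPM in libraries 3 and 4. Of the 10 neutrophil genes, 4 were called higher and 3 lower in libraries 1 and 2. The 11 monocyte and macrophage genes summed to 1215 and 1338 against 819 and 863 CPM. Ly6c2 supplied 793 and 858 against 369 and 411 CPM of this. Of these 11, 2 were called higher and 1 lower. Of the 12 heat shock genes that respond to cell isolation, 4 were called higher and 1 lower in libraries 1 and 2. Among them Hspa1b was 12.7 and 8.75 against 3.72 and 4.3 CPM. The part of the markers and of the heat shock genes in the levels of the members was not tested.

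KO CMP libraries parted in the same direction for Ier2 and Jun. Ier2 measured 296 and 247 CPM in KO CMP libraries 1 and 2 and 516 and 593 CPM in libraries 3 and 4, and Jun 1199 and 1177 against 2232 and 2214 CPM. The markers parted the other way than in WT CMP. Mpo was 3047 and 3591 against 8021 and 8126 CPM, and Fcgr3 12.9 and 18.8 against 31.1 and 28.1 CPM. The neutrophil sum was 21.9 and 24 against 69.1 and 75.9 CPM, and Hspa1b 1.83 and 2.99 against 4.61 and 5.5 CPM. Within number sets the KO estimates for Ier2 and Jun were near 0: they were 0.00 ± 0.13 and -0.10 ± 0.11 in CMP numbers 1 and 2, and 0.07 ± 0.13 and 0.08 ± 0.11 in CMP numbers 3 and 4. In WT GMP, Ier2 was 296 and 312 against 292 and 315 CPM, which overlapped. Jun was 1202 and 1230 against 1313 and 1351 CPM, the same direction as in CMP without overlap, and did not pass the test. In WT GMP 4 other members were higher in numbers 1 and 2 (3.16% of all genes called higher): Nr4a2 (1.09 ± 0.26, adjusted p = 0.0255), Nr4a1 (0.69 ± 0.15, adjusted p = 0.0183), Fosb (0.55 ± 0.14, adjusted p = 0.0272) and Egr1 (0.53 ± 0.11, adjusted p = 0.0121). With a block for library number only Egr1 of these 4 was called, and leaving out 1 library gave 0 to 5 calls, the 0 without WT GMP library 2 or 4. Of the 12 heat shock genes, 4 were called higher and 0 lower in WT GMP numbers 1 and 2. Hspa1b was 12.1 and 12.6 CPM there against 4.07 and 4.82 CPM in numbers 3 and 4. The part of the heat shock genes in these levels was not tested. Whether the number-set difference itself differs between CMP and GMP was not tested.

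**Figure D4:**
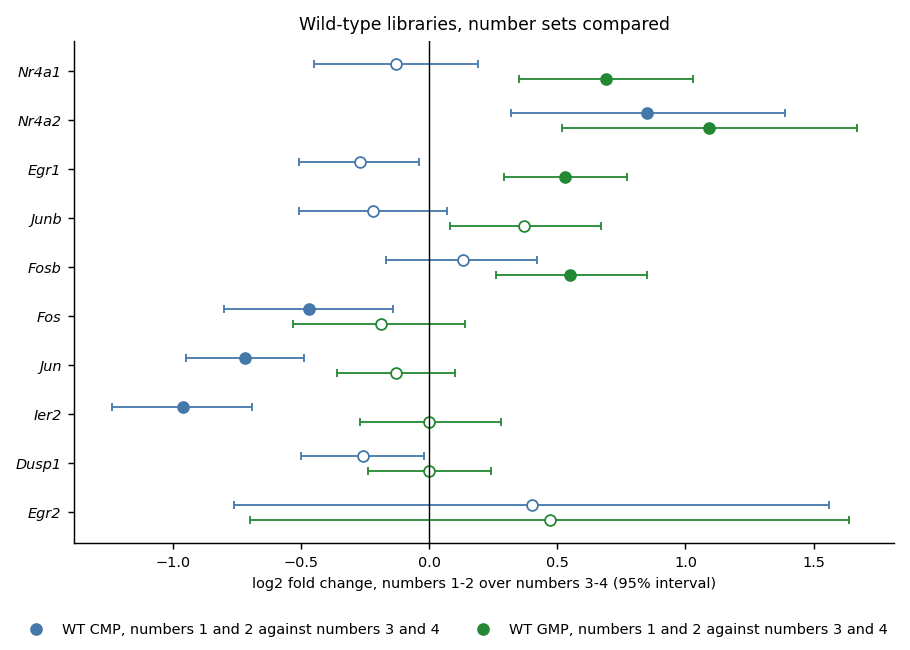
Log2 fold change of library numbers 1 and 2 over numbers 3 and 4 within WT CMP (blue) and WT GMP (green), with 95% intervals; filled points passed the adjusted threshold of 0.05. Ier2, Jun and Fos lie below 0 in WT CMP, at -0.96, -0.72 and -0.47, while Nr4a2 lies above 0 in both cell types, at 0.85 and 1.09.

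The summed level of the 10 genes gives the size of this spread. It was 5111, 3877, 5963 and 6178 CPM in WT CMP and 3908, 4490, 6714 and 6732 CPM in KO CMP, so numbers 3 and 4 were highest in both genotypes. In GMP it stayed within 3479 to 3664 CPM in WT and 4033 to 4073 CPM in KO. The KO GMP sums all lay above the WT GMP sums, and GMP libraries were far more alike than CMP libraries, of which the lowest, 3877 CPM, lay below the KO GMP range. Jun and Fos made up most of the GMP sums, with means of 1274 and 798 CPM in WT and 1431 and 939 CPM in KO. The sums were not tested, and no member was called for KO against WT in GMP over all libraries.

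Deviations of the 15 libraries from their group means showed which genes varied together. Fos and Dusp1 had a Pearson's r of 0.96 over the 15 deviations of log2 CPM, Jun and Ier2 0.94, Fos and Jun 0.91, and the 6 pairs among Fos, Jun, Ier2 and Dusp1 ran from 0.80 to 0.96. Nr4a1 and Nr4a2 had 0.75. Across these 2 sets of genes the values ran from -0.66, for Jun and Nr4a2, to 0.09 (Egr2 counted with the NR4A pair). Much of this was shared with library number. When deviations were taken within group and number set, over 14 libraries in 7 pairs, Fos and Dusp1 kept 0.97 and Nr4a1 and Nr4a2 had 0.86, but Jun and Ier2 had 0.57, Fos and Ier2 moved from 0.80 to -0.08, and Fos and Nr4a2 from -0.53 to 0.80. Fosb and Nr4a1 reached 0.97 there, from 0.51. For Fos, Fosb, Nr4a1 and Dusp1 the widest pairs were libraries 1 and 2 of KO CMP and of WT CMP, so these values rest largely on them. Fos was 666 and 983 CPM in that KO CMP pair and 1016 and 770 CPM in that WT CMP pair. Its next widest pair was WT GMP libraries 3 and 4, at 816 and 886 CPM. KO CMP libraries 1 and 2 are among the 3 that stood apart. All points share depth, scaling and sort with the other genes of their library, and the within-set values rest on 7 pairs, so they are descriptions without a test.

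**Figure D5:**
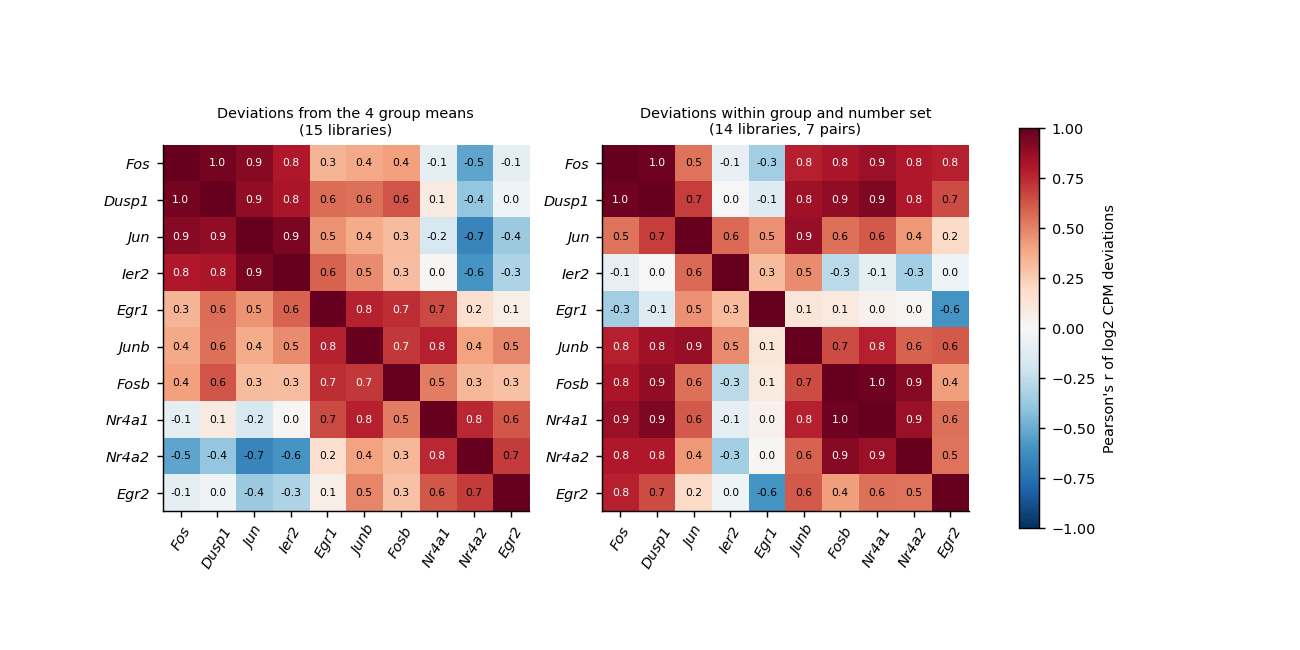
Pearson's r between genes of log2 CPM deviations from the 4 group means over 15 libraries (left) and of deviations within group and number set over 7 pairs of libraries (right); red is positive and blue negative. Fos and Dusp1 are at 0.96 and 0.97, while Fos and Nr4a2 go from -0.53 on the left to 0.80 on the right. The values of Fos on the right rest largely on libraries 1 and 2 of KO CMP and of WT CMP.

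The genes outside the 10 whose deviations were most like the mean standardised deviation of the 10, over the same 15 libraries, were 1700009J07Rik (r = 0.94), H2-Ob (0.91), Rgs1 (0.91), Dyrk3 (0.90) and Hsf1 (0.89). H2-Ob encodes a chain of the class II-like molecule H2-O, Rgs1 a regulator of G-protein signalling, Dyrk3 a kinase and Hsf1 the heat shock transcription factor. Their levels ranged from 4.24 to 44.5 CPM for H2-Ob, 37.2 to 239 CPM for Rgs1, 16 to 37.5 CPM for Dyrk3 and 52.2 to 74.7 CPM for Hsf1, while 1700009J07Rik never exceeded 0.287 CPM. These r values were chosen as the highest of all tested genes and carry no test.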

How the data were processed

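RNA of 15 libraries was analysed. Libraries of sorted cells were prepared with a SMARTER mRNA-Seq kit, per the labels' protocols. The submitters' processing notes name HISAT and mm10. For the counting step, tool and annotation were not given in the sources used here. Values as deposited are expected counts (estimated counts) for each symbol, without scaling. Multiples of 4 made up 38.0% of the 40915 values from 1 to 40 (an even spread would give 25%), and about 4 units were therefore read as 1 fragment. Identical libraries were looked for and 0 pairs were found.

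Values were rounded and tested in R 4.3.3 with edgeR 4.0.16 (filterByExpr, TMM, quasi-likelihood). A fit with 1 coefficient per group (11 residual degrees of freedom) gave KO against WT in each cell type, their difference, and GMP against CMP in each genotype. A second fit split each group by number set, with 7 residual degrees of freedom, for the effects within numbers 1 and 2 and numbers 3 and 4. P-values are two-sided and adjusted over 15181 genes, with a threshold of 0.05. CPM use the TMM scaling, and CPM per kb divide by the exon union of GENCODE on GRCm38. The fits were tested on simulated data. Promoters are from RefSeq and matched 8 of the 10 symbols, with 12 windows.

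The members, lists and the split by number were chosen with earlier results of these data known. The text names all 10 members, Trappc1, up to 3 genes of each pathway list by smallest p for KO against WT in each cell type and GMP against CMP in WT, and the 5 genes most like the members. Single genes of these rules that the text omits are not reported here. Xist, Fcgr3, Cd34, Mpo, Gata2, Pf4, Nkg7, S100a8, Ly6c2, Tfrc, Car2 and Hspa8 were named after their values were seen. The library numbers come from the sample titles. Same-numbered libraries deviated together across genes (r = 0.18 to 0.35 for WT and KO CMP, 0.13 to 0.18 for WT and KO GMP, 0.14 to 0.21 for WT CMP and GMP, 0.33 to 0.42 for KO CMP and GMP, all groups that were compared directly). Libraries of different numbers were not compared in this way, and the split by number set enters these values. They therefore cannot show that the numbers pair libraries, and same-number ratios are description. Alternatives were DESeq2 1.42.0, its size factors, no filter, values divided by 4, a block for library number, the number set as a covariate, 1 cell type alone, each library left out, and, added after the data were seen, all libraries but KO CMP 1, KO CMP 2 and KO GMP 1. A KO GMP library numbered 2 was not analysed here.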

Additional observations from a re-analysis of the deposited data

Results flagged for a closer look

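The KO effect on Nr4a1 in GMP differed between the number sets. It was larger in numbers 1 and 2 than in numbers 3 and 4 by 1.24 on the log2 scale (SE 0.24, edgeR adjusted p = 0.00546), with 57.2 CPM in the single KO library of numbers 1 and 2 against 16.5 and 18.3 CPM in WT, and 15.1 and 15 CPM against 11 and 10.6 CPM in numbers 3 and 4. KO was above WT in all 3 same-number pairs. The result rests on KO GMP library 1, which stood apart from the other KO GMP libraries (Xist 123 CPM, Fcgr3 125 CPM, Mpo 14822 CPM, Gata2 268 CPM), and has no value without it. Over 20 alternatives, all of which keep that library, it ran from 1.20 to 1.32, with adjusted p-values from 8.56e-06 to 0.0212.

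Each member was checked for a single library far from the rest in the 3 groups of 4, which makes 30 checks on each of the CPM and log2 CPM scales. KO GMP, with 3 libraries, was not checked. Nr4a1 in KO CMP stood out on the CPM scale: library 2, at 318 CPM against 238, 243 and 251 CPM, had a gap to the nearest library of 0.847 of the group's range, above the 95% limit of Dixon's test. On the log2 scale the gap was 0.827 of the range, under the limit. Chance passes this limit in about 1 of 20 groups. KO CMP library 2 is among the 3 KO libraries that stood apart.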

How the results depend on the processing

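For KO against WT over all libraries, for the difference of the KO effect between cell types and for numbers 3 and 4, the count of members called was 0 under every alternative run. The counts lower in GMP ran from 4 to 7 in WT (5 as reported) and from 3 to 6 in KO (4 as reported). In the number sets counts moved more. In CMP numbers 1 and 2, members higher in KO were 1 as reported and 2 with DESeq2 or values divided by 4, and ranged from 1 to 3 with 1 library left out, while members lower ranged from 0 to 4. In GMP numbers 1 and 2, members higher were 2 as reported and 5 with GMP libraries alone. For the difference between number sets, members lower in CMP were 0 as reported, 1 with DESeq2, without the filter or with values divided by 4, and 0 to 3 with 1 library left out, and members higher in GMP were 1 as reported and 2 with GMP libraries alone. Between WT CMP number sets, members higher were 1 as reported, 0 with the replicate block by library number or CMP libraries alone, and 0 to 1 with 1 library left out; members lower were 3 as reported, 5 without the KO libraries that stood apart, 2 with the block (Fos lost), and 2 to 5 with 1 library left out. Between WT GMP number sets, members higher were 4 as reported, 1 with the replicate block, and 0 to 5 with 1 library left out. The cause of these moves was not tested. The block lost Nr4a2 and Fos in WT CMP and Nr4a1, Nr4a2 and Fosb in WT GMP, and changed no other call of a member. Of 2302 values called in neither fit, 127 changed sign, the largest at a reported size of 0.57, and no called value changed sign.

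Depth limits Egr2 most, at 15 to 60.5 fragments a library, and Nr4a2 in GMP, at 55 to 229 fragments. KO GMP has 3 libraries and a single one in numbers 1 and 2. Without it no KO effect in that set can be fitted.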
